A study of Mus musculus with 10 samples.

Results

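The genes described here are 10 oxygen-dependent demethylases, the histone demethylases Kdm3a, Kdm4b, Kdm4c, Kdm2b, Kdm5a, Kdm6b and Kdm7a and the DNA demethylases Tet1, Tet2 and Tet3. They were chosen by name, as the rows of the deposited count table whose identifier carries one of these symbols in GENCODE release M21. The choice was made with earlier results of these data known. All 10 were found among the 18381 genes of the table, and all 10 were among the 14504 genes abundant enough to be tested. In molars cultured with insulin-like growth factor 1 (IGF1), the mRNA of Tet1 and of Kdm4b rose, each higher in the IGF1 molar of 5 of 5 embryos, while none of the other 8 genes passed the test. Of all genes tested, 11.5% passed, so 2 of 10 is near that background and is not a result about the group. The call of Kdm4b was lost when any of 4 embryos was left out and with DESeq2, and that of Tet1 was not. When the teeth of an embryo were not paired, the call of Tet1 was lost and that of Kdm4b was not. The IGF1 molars of 2 embryos had 2.35-fold and 2.51-fold the Kdm3a of their controls, and those of the other 3 between 0.937-fold and 1.05-fold.

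The samples were first lower molars of wild type C57BL/6JOlaHsd mouse embryos at embryonic day 14, the cap stage, when the dental epithelium folds around the mesenchyme. Each of 5 embryos, numbered 1, 2, 3, 4 and 6, gave 1 molar to medium with IGF1 at 750 ng per ml and its other molar to medium with an equal volume of the vehicle, phosphate-buffered saline with bovine serum albumin, and both were kept in hanging drops for 6 h. There were thus 5 IGF1 and 5 control libraries, each from a single whole tooth. The protocol states that sides were balanced, which 5 pairs allow only nearly, and the labels do not give the side of each tooth. Uncultured teeth were not analysed here, so both groups share the culture itself.

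All these enzymes belong to the oxygenases that use iron and 2-oxoglutarate. They split molecular oxygen, oxidise a methyl group and convert 2-oxoglutarate to succinate. The Kdm proteins do this through a Jumonji C (JmjC) domain and remove methyl groups from lysines of histone H3, whereas the Tet proteins oxidise 5-methylcytosine in DNA to 5-hydroxymethylcytosine and beyond, which lets unmodified cytosine return. Several of them, Kdm3a, Kdm4b and Kdm4c among them, are also known target genes of the hypoxia-inducible factor HIF. The counts are of mRNA. Neither histone nor DNA methylation was measured.

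Total counts ranged from 2845773 to 8403151 in the control libraries and from 3456634 to 8763113 in the IGF1 libraries, and both libraries of embryo 1 were the shallowest. Each demethylase was counted at least 148 times in every library. Summed over lists of marker genes, all 12 epithelial and all 12 mesenchymal markers were above 0 in every library, with epithelial sums of 2203 to 3374 CPM (counts per 1000000 counts of the library) in control and 2505 to 3485 CPM in IGF1 teeth, and mesenchymal sums of 7131 to 9251 and 6544 to 9098 CPM. The other cell types were low but present. Endothelial markers (8 of 8) summed to 389 to 446 CPM in control and 308 to 405 CPM in IGF1 teeth, and erythroid markers (7 of 7) to 717 to 1313 and 514 to 1054 CPM. Both of these sums were lower in the IGF1 tooth of 5 of 5 embryos, the mesenchymal sum was lower in 4 of 5 and the epithelial sum in 1 of 5. Of the 12 mesenchymal markers 2 (Vim and Pdgfra) were called lower, and of the 12 epithelial markers 1 (Krt5) was called higher. Of all genes tested, 11.5% were called, 6.72% higher and 4.76% lower. At an unadjusted p under 0.05, edgeR gave 4 mesenchymal markers lower and 0 higher, and 3 epithelial markers higher and 0 lower. DESeq2 called 3 mesenchymal markers lower and 1 epithelial marker higher, and limma-voom called 3 lower and 2 higher. Of 6 erythroid markers tested 4 were called lower (median log2 fold change -0.49), and of 8 endothelial markers 2 (median -0.26). Macrophage markers (8 of 8) summed to 82.7 to 117 and 69.4 to 105 CPM, glial and neuronal markers (6 of 7 in the table) to 16.98 to 25.3 and 18.7 to 33.9 CPM, muscle markers (6 of 6) to 27.5 to 102 and 16.4 to 126 CPM, and bone and cartilage markers (7 of 7) to 294 to 595 and 245 to 933 CPM. By edgeR, 1 macrophage marker was called lower, 1 neuronal marker and 1 bone and cartilage marker were called higher, and no muscle marker was called, also at an unadjusted p under 0.05 or by DESeq2. The macrophage, muscle, and bone and cartilage sums were lower in the IGF1 tooth of 4 of 5 embryos and the glial and neuronal sum in 1 of 5. No marker in the table was at 0 in all 10 libraries. The part of these cell types in any result below was not tested, and in whole teeth fewer cells of a type and less RNA per cell cannot be told apart.

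Promoter sequence was read for the members because several of them are known HIF targets and because list genes under HIF were higher with IGF1. HIF binds the letters ACGTG or GCGTG. Windows of 250 bases before the annotated starts were taken from RefSeq on GRCm38.p6, and 7 of the 10 genes had an entry, with 13 starts in all. Kdm4b, Kdm5a and Kdm6b had none. Both motifs were searched on both strands, so that each copy of CACGTG gives 2 matches of ACGTG. Over 32851 windows of all genes, 16.6% held ACGTG, 28.2% held GCGTG and 38.6% held either. Of the 13 member windows, 8 held either motif, among them all 4 of Kdm2b, and the Tet3 window held none. The Kdm2b windows chr5:122900351-122900600 and chr5:122900368-122900617 overlap and share their matches, so the same sites were counted in both. The stretches shown are the longest part of a window that lies outside every annotated exon, written 5′ to 3′ on the gene's own strand, with matches in capitals. They were chosen to show Kdm3a, which was high in the IGF1 teeth of 2 embryos, Kdm4c, which had the most matches, Kdm7a, whose embryos went in opposite directions, and Tet1, which rose, beside Tet2, which did not pass the test.
Kdm3a, chr6:71632991-71633167, minus strand: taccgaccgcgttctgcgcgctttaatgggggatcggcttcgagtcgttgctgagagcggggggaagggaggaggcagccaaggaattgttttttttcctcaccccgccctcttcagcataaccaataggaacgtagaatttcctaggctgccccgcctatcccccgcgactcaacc
Kdm4c, chr4:74251715-74251878, plus strand: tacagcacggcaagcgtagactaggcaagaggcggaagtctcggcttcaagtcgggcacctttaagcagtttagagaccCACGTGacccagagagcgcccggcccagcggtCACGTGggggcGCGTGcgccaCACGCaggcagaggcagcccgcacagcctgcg
Kdm7a, chr6:39206790-39207023, minus strand: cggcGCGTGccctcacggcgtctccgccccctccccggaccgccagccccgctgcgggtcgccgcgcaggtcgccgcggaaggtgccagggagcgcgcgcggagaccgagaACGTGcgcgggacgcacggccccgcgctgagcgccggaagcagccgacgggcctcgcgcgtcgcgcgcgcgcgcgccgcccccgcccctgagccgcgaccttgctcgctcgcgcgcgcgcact
Tet1, chr10:62887325-62887412, minus strand: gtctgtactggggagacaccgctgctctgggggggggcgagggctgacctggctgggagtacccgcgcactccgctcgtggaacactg
Tet2, chr3:133544391-133544640, minus strand: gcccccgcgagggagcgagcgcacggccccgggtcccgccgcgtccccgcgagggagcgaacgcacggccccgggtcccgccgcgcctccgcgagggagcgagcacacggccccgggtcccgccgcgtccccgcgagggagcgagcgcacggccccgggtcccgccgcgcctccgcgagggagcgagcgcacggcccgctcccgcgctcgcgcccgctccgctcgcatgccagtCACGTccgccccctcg
Each stretch stands for 1 of the starts of its gene. The window before the other Kdm4c start, chr4:74242247-74242496, held neither motif and 0 CpG, and both further Kdm3a windows held neither motif. The Kdm4c stretch held 4 matches of ACGTG, from 2 copies of CACGTG, and 2 of GCGTG. The Kdm7a stretch held 1 of each, and the Tet2 stretch held 1 of ACGTG. The Kdm3a stretch showed none, and the single GCGTG of its window lay in the exonic part, which is not printed. The Tet1 window of 250 bases held neither set of letters, which says only that they are not in this window. The number of CpG dinucleotides per window was 20 for this Kdm3a start, 19 for this Kdm4c start, 56 for Kdm7a, 15 for Tet1 and 51 for Tet2, beside a median of 6 and quartiles of 2 and 16 over all windows. The motif matches are a description of sequence and do not show that a factor bound there.

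The first question was how strongly each demethylase is expressed in the cultured molar. Levels of different genes were compared as CPM per kilobase of merged annotated exons, which still depends on the isoforms that the annotation joins. In the control teeth, Tet3 had the highest mean at 17.9 ± 1.78 (SD, n = 5), followed by Kdm5a at 16.9 ± 0.947, Kdm4b at 16.7 ± 1.94, Tet2 at 16.6 ± 0.756 and Kdm3a at 15.6 ± 1.62. Kdm7a (13.7 ± 1.57), Kdm6b (13.3 ± 5.31), Kdm4c (10.2 ± 0.872), Tet1 (8.34 ± 1.18) and Kdm2b (6.63 ± 0.628) came after them. The ranges of each gene and the next in this order overlapped, so the order is resolved only between genes farther apart: the lowest control value of Tet3, 16.6, lay above the highest of Tet1, 10.3, and of Kdm2b, 7.57. In the IGF1 teeth, Kdm4b (24.98 ± 7.13) and Kdm3a (24.4 ± 12.4) had the highest means, with the widest ranges of the 10 genes, 18.7 to 36.3 and 14.9 to 42.8. Tet1 was the least abundant Tet gene in both groups, at 10.8 ± 2.35 with IGF1.

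**Figure D1:**
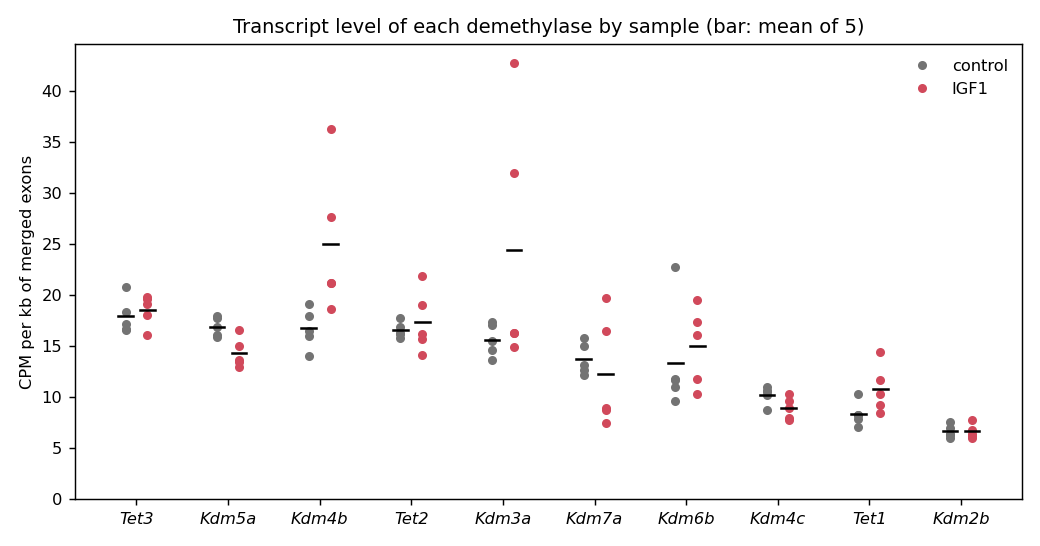
Transcript level of the 10 demethylases in each library, in CPM per kilobase of merged exons, ordered by the control mean; each point is 1 tooth and each bar the mean of 5 teeth. The control teeth of most genes cluster tightly, and 2 IGF1 teeth stand far above the rest for Kdm3a.

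The main question was whether IGF1 changed these genes within 6 h. Both molars of an embryo were compared with each other, with edgeR's quasi-likelihood test over all 14504 genes and Benjamini-Hochberg adjustment, and a gene was called at an adjusted p under 0.05. Of the 10 demethylases, 2 were called (20%), both higher with IGF1, where 11.5% of all genes tested were called, 6.72% higher and 4.76% lower. A count of 2 among 10 genes is near that background and is not a result about the group. No demethylase was called lower by edgeR, DESeq2 or limma-voom, although edgeR called Kdm5a lower with upper quartile scaling and without embryo 3. DESeq2 called 1 higher and limma-voom 2. At an unadjusted p under 0.05, edgeR gave 3 higher and 2 lower. The median log2 fold change of the 10 genes was 0.053, beside -0.0038 over all genes tested. The p-values rest on the variation between these 5 embryos, with the variance of each gene moderated by that of all genes tested. The SE beside an edgeR log2 fold change is derived from the same test and is not the spread of the 5 ratios. For Kdm4b it was 0.16, where the ratios had an SD of 0.52. The labels number the embryos without naming litters.

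**Figure D2:**
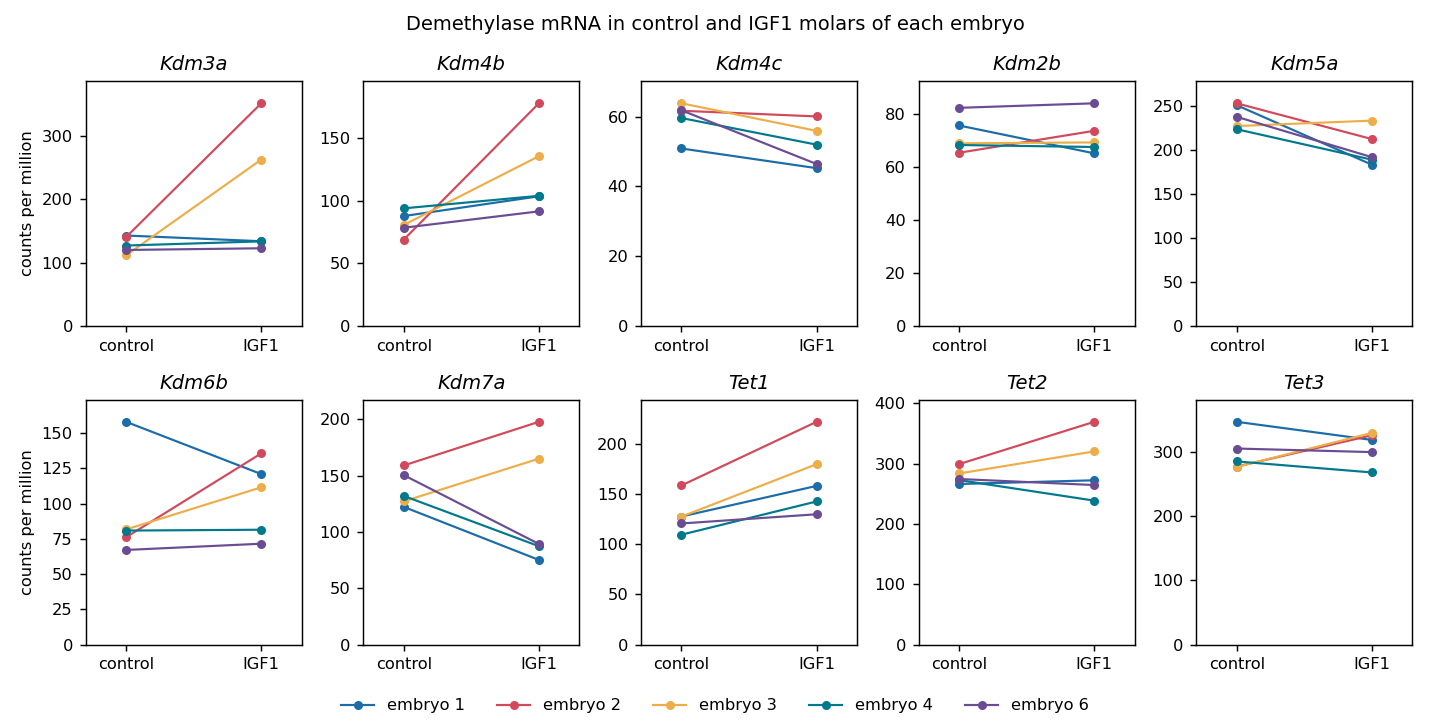
CPM of the 10 demethylases in the control and IGF1 molars, with a line joining both teeth of each embryo (5 embryos, axes from 0). The lines of Tet1 and Kdm4b all point up and those of Kdm4c all point down, whereas those of Kdm7a point in both directions.

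Of the 2 called genes, Tet1 varied less between embryos. The gene (chr10:62804570-62908996, minus strand, GRCm38) encodes a methylcytosine dioxygenase that binds CpG-rich DNA. Its control teeth, in the order of embryos 1, 2, 3, 4 and 6, had 128, 159, 128, 109.6 and 121 CPM, and the IGF1 teeth of the same embryos had 158, 222, 180.1, 143 and 130.1 CPM. The IGF1 tooth was higher in 5 of 5 embryos, although the groups overlapped, because both teeth of embryo 2 were the highest of their group. The log2 ratio within an embryo ran from 0.11 in embryo 6 to 0.49 in embryo 3, with a mean of 0.36 ± 0.16 (SD, n = 5). Tet1 rose by a log2 fold change of 0.36 ± 0.075 (SE), or 1.28-fold, with edgeR's adjusted p = 0.0114. The call held without any single embryo (adjusted p 0.0124 to 0.0491). It was lost when the teeth of an embryo were not paired, at adjusted p = 0.152, in a fit that called 6.12% of all genes.

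Tet2 and Tet3 did not pass the test. Tet2 (chr3:133463679-133545139, minus strand), which lacks the DNA-binding domain of its relatives, had 266, 299, 284, 273 and 275 CPM in the control and 272, 369, 320.3, 239 and 265 CPM in the IGF1 teeth. Its IGF1 tooth was higher in embryos 1, 2 and 3 and lower in embryos 4 and 6, and the groups overlapped. Tet3 (chr6:83362373-83459084, minus strand), the most abundant of the 10 genes per kilobase in the controls, had 348, 278, 277, 286 and 306 CPM against 319, 327, 330.3, 269 and 300.4 CPM. It was higher with IGF1 only in embryos 2 and 3. The log2 fold changes were 0.055 ± 0.079 for Tet2 (adjusted p = 0.711) and 0.052 ± 0.076 for Tet3 (adjusted p = 0.717).

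Tet1 was then set beside its relatives within each embryo. It was the only Tet gene called in these same data, so a larger mean ratio than theirs partly follows from that. The log2 ratio of Tet1 exceeded that of Tet2 by 0.30 ± 0.17 (SD, n = 5 embryos), from 0.16 to 0.57, and that of Tet3 by 0.31 ± 0.14, from 0.13 to 0.47. Both differences were positive in 5 of 5 embryos. The exact two-sided permutation test over the signs of 5 pairs gave p = 0.0625 for each of the 2 comparisons, 0.0625 after Benjamini-Hochberg adjustment, which is the smallest p that this sign test can give with 5 pairs, so the test cannot pass 0.05 here.

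Kdm3a, Kdm4b and Kdm4c act on H3K9, as does Kdm7a, described after them. Kdm4b (chr17:56326062-56402870, plus strand) removes methyl groups from trimethylated H3K9 and H3K36 and is a known HIF target. It had 87.6, 68.8, 80.6, 93.8 and 78.3 CPM in the control teeth and 103, 177, 135, 104 and 91.4 CPM in the IGF1 teeth. All 5 embryos had more in the IGF1 tooth, by 2.58-fold in embryo 2, 1.68-fold in embryo 3 and 1.11-fold to 1.18-fold in the other 3, and the groups overlapped only in that the IGF1 tooth of embryo 6 lay below the control tooth of embryo 4. Kdm4b rose by a log2 fold change of 0.55 ± 0.16 (SE), or 1.47-fold, at adjusted p = 0.0434 in edgeR's quasi-likelihood test. This call was close to the threshold and was lost without embryo 1 (adjusted p = 0.0594), 2 (0.0784), 3 (0.104) or 6 (0.0618), with DESeq2's Wald test (0.129) and with no filter on low counts (0.0547). Without embryo 2 the log2 fold change was 0.34.

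Kdm3a (chr6:71588972-71632990, minus strand), which removes mono- and dimethyl groups from H3K9, had 143, 140.4, 112, 127 and 120.1 CPM in the control teeth. The IGF1 teeth had 134, 352, 263, 134 and 123 CPM. Only the IGF1 teeth of embryos 2 and 3 lay above the control range of 112 to 143 CPM, and those of embryos 1, 4 and 6 lay inside it. In embryos 2 and 3 the IGF1 tooth had 2.51-fold and 2.35-fold the CPM of its control, against 0.937-fold, 1.05-fold and 1.02-fold in embryos 1, 4 and 6. The log2 fold change was 0.53 ± 0.20, nearly that of Kdm4b, but the adjusted p was 0.120. It was 0.32 without embryo 2 and 0.35 without embryo 3. Its log2 ratios had an SD of 0.70 between embryos, above that of 92.3% of all genes tested.

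Kdm4c (chr4:74242497-74405860, plus strand), a close relative of Kdm4b that acts on the same lysines, was lower in the IGF1 tooth of 5 of 5 embryos and did not pass the test. Its control teeth had 50.8, 61.7, 63.8, 59.6 and 61.8 CPM and its IGF1 teeth 45.2, 60.03, 55.9, 51.9 and 46.4 CPM. The decrease was smallest in embryo 2 and largest in embryo 6, and the groups overlapped. The log2 fold change was -0.20 ± 0.079 with adjusted p = 0.128, and its spread between embryos was small, with an SD of 0.13.

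Kdm2b and Kdm5a act on other lysines. Kdm2b (chr5:122870665-122989823, minus strand) removes methyl groups from H3K36 and brings a Polycomb complex to unmethylated CpG islands. It had 75.6, 65.3, 68.9, 68.2 and 82.2 CPM in the control and 65.1, 73.6, 69.2, 67.5 and 83.9 CPM in the IGF1 teeth. These ranges nearly coincided, and the log2 fold change was 0.0023 ± 0.076 with adjusted p = 0.988. Kdm2b shares 627 exon bases with Rnf34 on the opposite strand, and 199 and 124 with an antisense and a same-strand gene that were not analysed here, and since the strand use of the counting was not given in the sources used here, reads there could belong to either gene.

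Kdm5a (chr6:120364124-120444574, plus strand), an eraser of H3K4 methylation at promoters, had 251, 254, 228, 224 and 238 CPM in the control teeth and 184, 213, 234, 189 and 192 CPM in the IGF1 teeth. The IGF1 tooth was the lower in embryos 1, 2, 4 and 6, all below the whole control range, and the higher in embryo 3. The log2 fold change was -0.24 ± 0.076 and did not pass the test, with adjusted p = 0.0672. It passed without embryo 3 (log2 fold change -0.32, adjusted p = 0.0157) and with upper quartile scaling (-0.26, adjusted p = 0.0439), so embryo 3 and the scaling each decide this call. Kdm5a shares 251 exon bases with Ccdc77 on the opposite strand.

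Kdm6b and Kdm7a differed in sign between embryos. Kdm6b (chr11:69398508-69413675, minus strand), an inducible eraser of H3K27 trimethylation, had 158, 76.1, 81.6, 80.8 and 67.1 CPM in the control and 121, 136, 112, 81.4 and 71.5 CPM in the IGF1 teeth. The control tooth of embryo 1 lay far above the other 4 control teeth, and its embryo was the only one with less Kdm6b in the IGF1 tooth. The log2 ratios were -0.38, 0.83, 0.45, 0.011 and 0.092 in embryos 1, 2, 3, 4 and 6, and the log2 fold change of 0.21 ± 0.14 did not pass the test (adjusted p = 0.382).

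Kdm7a (chr6:39136623-39206789, minus strand) removes dimethyl groups from H3K9 and H3K27. Its control teeth had 122, 159, 127, 132 and 151 CPM and its IGF1 teeth 75.2, 198, 165, 87.4 and 89.4 CPM. The IGF1 teeth lay above the whole control range in embryos 2 and 3 and below it in embryos 1, 4 and 6, so no IGF1 tooth lay inside it. The log2 ratios were -0.70, 0.31, 0.38, -0.59 and -0.75 in embryos 1, 2, 3, 4 and 6. Their mean of -0.27 had an SD of 0.57, and edgeR's log2 fold change of -0.25 ± 0.17 had an adjusted p of 0.382. Without single embryos it ran from -0.42 (without embryo 3) to -0.13 (without embryo 6) and did not pass in any of these fits. Kdm6b, Kdm7a and Tet2 share 286, 287 and 43 exon bases with antisense genes that were not analysed here.

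**Figure D3:**
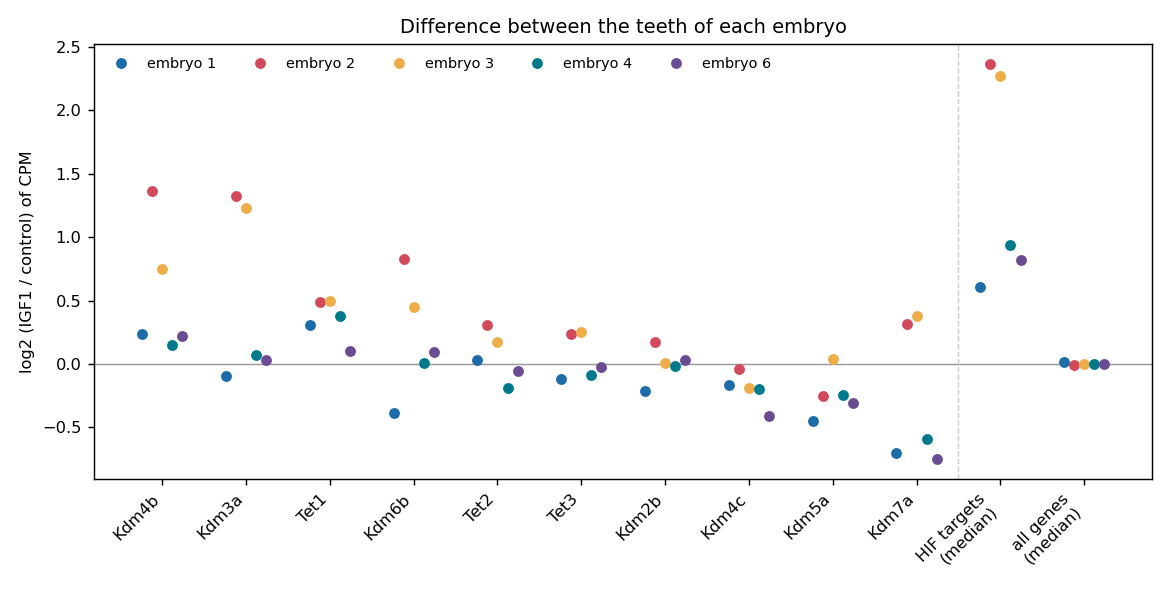
The log2 ratio of IGF1 to control CPM in each embryo for the 10 demethylases, with the median of 15 HIF target genes and of all 14504 genes tested to the right of the dashed line; each point is 1 embryo. Embryos 2 and 3 lie highest for 7 demethylases and for the HIF targets, while the medians of all genes lie within 0.016 of 0.

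The same embryos recurred across the members. Embryos 2 and 3 had the highest ratios for Kdm3a, Kdm4b, Kdm6b, Kdm7a, Tet1, Tet2 and Tet3, which is 7 of 10 genes (70%), beside 11.5% of all genes tested (1668 of 14504). This ordering was noticed after the values were seen, the members share the same teeth, and it carries no test. The same embryos were the highest for a list of HIF target genes that holds no demethylase. This list was chosen with earlier results of these data known. Of its 16 genes, 15 were tested and 14 rose, beside 6.72% of all genes tested that were called higher. None was lower by edgeR, also at an unadjusted p under 0.05, and DESeq2 called 13 higher and none lower. Their median log2 ratio was 0.61, 2.37, 2.27, 0.94 and 0.82 in embryos 1, 2, 3, 4 and 6. The medians of all genes were within 0.016 of 0 in every embryo. Egln1, an oxygen-sensing prolyl hydroxylase that marks HIF for degradation and itself a HIF target, had log2 ratios of 0.61, 1.88, 1.58, 0.45 and 0.65, and rose by 1.07 ± 0.19 (adjusted p = 0.00537). The part of oxygen supply in the drops in any of these values was not tested, because no oxygen was measured.

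Other enzymes of the same chemistry were described from lists of related genes. Of 22 other JmjC genes, 21 were tested, 1 rose and 2 fell, beside the 11.5% of all genes that were called, with a median log2 fold change of -0.089. At an unadjusted p under 0.05, 1 was higher and 4 were lower. Jmjd6, a lysyl hydroxylase of splicing factors, had 47.6 ± 1.05 CPM in the control teeth and 85.4 ± 30.5 CPM in the IGF1 teeth and rose in 5 of 5 embryos by 0.79 ± 0.14 (adjusted p = 0.00451). Kdm6a, the X-linked relative of Kdm6b, fell by 0.26 ± 0.065 on the log2 scale (adjusted p = 0.0268), also in 5 of 5 embryos. Reads of Kdm6a could be shared with its Y-linked copy Uty. Uty had 129.9 CPM in the control and 105 CPM in the IGF1 tooth of embryo 1 and 3.14 to 8.18 CPM in the other 8 teeth. Kdm5d, another Y-linked gene of this list, had 148 and 130 CPM in embryo 1 and 11.7 to 14.8 CPM in the other 8 teeth. Embryo 1 alone thus had high Y-linked expression, and the part of sex in any result was not tested. Jmjd1c, a relative of Kdm3a, fell by 0.28 ± 0.071 (adjusted p = 0.0289). The nearest relatives of other members did not pass the test: Kdm4a had 0.0045 ± 0.069, Kdm5b 0.14 ± 0.10 and Kdm5c 0.017 ± 0.075 as log2 fold changes. Kdm5b, like Kdm3a, had its highest ratios in embryos 2 and 3, at 0.50 and 0.43.

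Among 9 genes of the AlkB family, Fto included, most of which act on nucleic acids, 1 rose and none fell. This count is near the 11.5% of all genes that were called. At an unadjusted p under 0.05, edgeR gave 1 higher and 1 lower. DESeq2 called 1 higher and none lower. Alkbh5, which removes methyl groups from N6-methyladenosine in RNA, had 138 ± 9.90 CPM in the control teeth and 216 ± 68.0 CPM in the IGF1 teeth and rose by 0.61 ± 0.13 (adjusted p = 0.0148). Fto, which also demethylates RNA, had -0.021 ± 0.062 and did not pass the test.

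**Figure D4:**
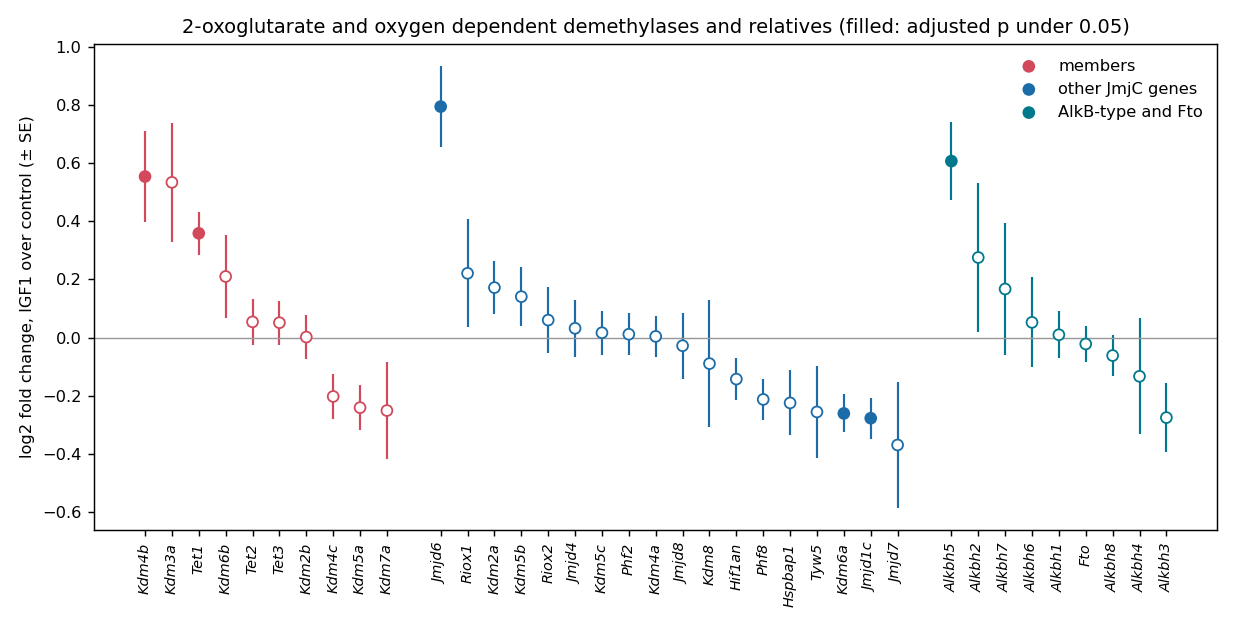
Log2 fold change of IGF1 over control (edgeR, points, with bars of 1 SE) for the 10 demethylases, 18 of the 21 other JmjC genes tested and 9 AlkB-type genes with Fto, from 5 pairs of teeth; filled points passed the adjusted p threshold of 0.05. Tet1 and Kdm4b are the filled points among the members, Jmjd6, Kdm6a and Jmjd1c among their relatives, and Alkbh5 among the AlkB-type genes.

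The enzymes that place the marks, and those that erase them without oxygenase chemistry, were taken list by list. Their counts stand beside the 11.5% of all genes tested that were called. Each of these lists held 1 gene called by edgeR, which is not a result about the list. Of 6 H3K9 methyltransferases, only Suv39h2 passed and rose by 0.70 ± 0.10. Of 9 genes of Polycomb repressive complex 2, which methylates H3K27, only Ezh1 passed, and it fell by 0.79 ± 0.090. Of 11 H3K4 methyltransferase genes, edgeR called only Setd1b, which fell by 0.40 ± 0.080, while DESeq2 and limma-voom each called 2 lower. Of 5 H3K36 methyltransferases only Nsd2 rose, by 0.32 ± 0.063. Of 5 flavin-dependent demethylases and their CoREST partners, only Rcor2, a CoREST subunit that works with Kdm1a, passed and rose by 1.28 ± 0.13.

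The genes that work beside Tet1 and Kdm2b were read against the 11.5% of all genes that were called. Of 9 genes of DNA methylation, the maintenance methyltransferase Dnmt1 rose by 0.30 ± 0.081 and its partner Uhrf1 by 0.74 ± 0.088. None of 11 partners of the Tet enzymes and glycosylases downstream of them was called by edgeR, DESeq2 or limma-voom, and at an unadjusted p under 0.05 edgeR gave 2 higher and 1 lower. Of 9 genes of the Polycomb complex that holds Kdm2b, only Ring1, a ubiquitin ligase, was called, and it fell by 0.39 ± 0.11 (adjusted p = 0.0457). DESeq2 called none of the 9, and edgeR gave 1 higher and 1 lower at an unadjusted p under 0.05.

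The supply of the cosubstrates was read from 2 further lists. Of 16 genes that make or use 2-oxoglutarate, succinate or fumarate, 2 were called, both higher, beside the 11.5% of all genes. DESeq2 called 1 of them, and edgeR gave 6 higher and 2 lower at an unadjusted p under 0.05. Idh1, which makes 2-oxoglutarate in the cytosol, rose by 0.71 ± 0.092 in 5 of 5 embryos (adjusted p = 0.00086), and Idh3a, a subunit of the mitochondrial enzyme, by 0.28 ± 0.078. Of 11 tested genes of iron and ascorbate supply, 4 rose and 2 fell, beside the 11.5% of all genes that were called. DESeq2 called 3 higher and 2 lower, and edgeR gave 5 higher and 3 lower at an unadjusted p under 0.05. The transferrin receptor Tfrc rose by 0.75 ± 0.13 and the iron transporter Slc11a2 by 0.46 ± 0.10. The glucose carriers Slc2a1 and Slc2a3, which also carry oxidised ascorbate, rose by 1.68 ± 0.32 and 1.22 ± 0.31, and Slc2a3 was named after its values were seen. Slc2a1 is also on the list of HIF targets. The iron exporter Slc40a1 fell by 1.01 ± 0.17 and the ferritin heavy chain Fth1 by 0.32 ± 0.087. Levels of the metabolites themselves were not measured.

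The genes nearest in pattern to each called member were sought over the 10 libraries, by the root mean square difference of log2 CPM after subtraction of each gene's mean. For Kdm4b they were Lonp1 (0.12), Map2k1 (0.13), Tnfsf9 (0.13), Alkbh5 (0.13) and Eml5 (0.14). For Tet1 they included Rhoq (0.070), Asph (0.10), Sec63 (0.11) and Chrdl1 (0.11), of which Asph encodes another oxygenase that uses 2-oxoglutarate. Alkbh5 was also among the 5 nearest genes of Kdm3a, at 0.19, a gene looked at after its values were seen. Among the members themselves, Kdm4c and Kdm5a were the closest pair at 0.136, with Kdm2b and Tet3 at 0.142. Many other genes lay closer, since Kdm5a had rank 538 from Kdm4c among all genes tested, and Kdm4c rank 550 from Kdm5a. Kdm4b had rank 27 from Kdm3a, at 0.25, and Kdm3a rank 166 from Kdm4b. The member nearest to Tet1 was Tet2 at 0.19, with rank 259.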

How the data were processed

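RNA of 10 single molars was sequenced after Ovation Mouse RNAseq library preparation. The authors deposited estimated counts per gene. Their processing notes name FastQC 0.11.8, Trimmomatic 0.39, Salmon 0.99.0 and DESeq2, and build GRCm38, while the transcript set, strand and row filter are not given in the sources used here. Rounding to whole numbers changed 0 values. Every row has at least 10 counts in all, and 18287 of the 18381 genes are in GENCODE M21, which gave symbols, places and exon lengths.

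Counts were scaled by TMM, filtered by filterByExpr and tested with edgeR 4.0.16 (quasi-likelihood, embryo as block, Benjamini-Hochberg over 14504 genes). CPM values use TMM library sizes. The pairs follow the labels, which number the embryos. Deviations from the group means correlated at 0.319, 0.208, -0.0389, 0.170 and 0.313 within embryos 1, 2, 3, 4 and 6, with -0.0463 as the median for teeth of different embryos. No library duplicated another of its group (chi-square per degree of freedom at least 4.68). The procedure was tested on simulated data. Alternatives were 2 other scalings, 2 other filters, DESeq2 1.42.0, limma 3.58.1 (voom), no block, and leaving out each embryo.

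The genes named are all 10 members, up to 3 called genes with the smallest p per direction of each chromatin, cosubstrate and iron list (and Slc2a3), 5 relatives (Kdm4a, Kdm5b, Kdm5c, Kdm6a, Fto), and the 5 nearest in pattern to each called member, of which 1 gene is not reported here. The rule also covers the HIF and marker lists, which are given by counts, with Egln1, Vim, Pdgfra and Krt5 named. Uty and Kdm5d were named after their values were seen. The members and lists were chosen with earlier results of these data known. R 4.3.3 and Python 3.11.15 were used.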

Additional observations from a re-analysis of the deposited data

Results flagged for a closer look

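The Kdm6b level of the control teeth held 1 value far from the others. The control tooth of embryo 1 had 158 CPM and the other 4 control teeth 67.1 to 81.6 CPM, so that the gap was 0.84 of the whole range, above Dixon's critical value of 0.71 for 5 samples. With 20 groups examined, chance alone would give about 1 such value, and 1 was found. The IGF1 tooth of the same embryo, at 121 CPM, was inside the range of its group, and both libraries of embryo 1 had the lowest totals. Without embryo 1 the log2 fold change of Kdm6b was 0.35 in place of 0.21, at edgeR's adjusted p = 0.139. It was 0.050 without embryo 2 and 0.14 without embryo 3, and it did not pass the test in any of these fits.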

How the results depend on the processing

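Under the alternatives, 132 values kept their direction and their side of the threshold (counts of genes within 1.5 times), 9 counts moved by more, 7 values no longer passed, 2 newly passed and 6 changed sign. Without the replicate block, 887 genes were called in place of 1666, Tet1 kept its direction at 0.37 without passing (adjusted p = 0.152), and 1 demethylase was called in place of 2; the cause was not tested. Also 1 demethylase was called with no filter on low counts and with DESeq2's Wald test, where Kdm4b did not pass at 0.55 and 0.54. With upper quartile scaling Kdm5a passed at -0.26 and Kdm2b turned to -0.022; this scaling moved the median of all genes to -0.028. Leaving out single embryos gave 986 to 1602 called genes, with fewer samples in each fit, and 1 to 2 called demethylases. The log2 fold changes then ran from 0.34 to 0.66 for Kdm4b, -0.041 to 0.048 for Kdm2b, -0.32 to -0.19 for Kdm5a, -0.010 to 0.12 for Tet2 and -0.0036 to 0.093 for Tet3, so the signs of Kdm2b, Tet2 and Tet3 are not resolved. Kdm4b passed without embryo 4 and with none of the other embryos left out. Tet1 passed in each of these fits (0.32 to 0.42). Kdm3a passed in none of the alternatives, with adjusted p from 0.0761 to 0.361. The members had at least 148 counts in every library, and embryo 1, with the lowest totals, is the least precise.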
